A study of Mus musculus with 3 samples.

Results

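Transcript levels of p53 and its target genes were described across 3 cultured populations of JC, a mouse mammary carcinoma line. The 10 genes were taken by symbol from the 55471 features of the deposited table: Trp53, which encodes p53, its inhibitor Mdm2, its upstream activator locus Cdkn2a, and the targets Cdkn1a, Ccng1, Bax, Bbc3, Sesn2, Trp53inp1 and Gdf15. All 10 symbols occurred once, and all 10 reached a mean of 1 TPM over the 3 libraries, as did 14527 features in all. TPM is a level per gene, corrected for gene length and scaled to the library total. Between genes and between libraries it is thus compared as a share of that total, not as an absolute amount.

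JC-WT carries no further description than WT. JC-P, called parental in the labels, was recovered from tumours in the mammary fat pad at day 14. JC-M3 was selected from JC-P through 3 cycles of intravenous injection, with lung lesions collected at day 28 of a cycle. All 3 carry the genotype label WT and the cell line label JC, and RNA was taken from cells in culture. The treatment label of JC-P reads metastasis, like that of JC-M3, so its fat pad origin rests on the protocol. The labels do not say whether an isolate came from 1 animal or was a clone, and the sequence of p53 in these cells is not given in the sources used here. Each population has 1 library, so no difference has a replicate check, none was tested, and every ratio compares a pair of libraries. Gene-assigned reads came to 18093426 for JC-WT, 22132593 for JC-P and 23386413 for JC-M3.

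p53 is a transcription factor that is kept low by the ubiquitin ligase Mdm2 and is stabilised after DNA damage, oncogene activity and other stress. It then switches on genes that stop the cell cycle, such as Cdkn1a, that cause cell death, such as Bax and Bbc3, and that feed back on p53 itself, such as Mdm2 and Ccng1. Much of its control acts on the protein, so the level of Trp53 RNA is not a measure of p53 activity. The Cdkn2a locus encodes a pair of tumour suppressors from different first exons. One, p16Ink4a, inhibits Cdk4 and Cdk6, and the other, p19Arf, binds Mdm2 and so protects p53. The deposited level is per gene and does not separate them. Loss of p53 function and loss of Cdkn2a are both common in mouse tumour cell lines.

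The binding motif of p53 is a decamer, a unit of 10 bases, that usually occurs as a pair. Cdkn1a and Ccng1 have such a pair just upstream of a RefSeq transcript start (GRCm38.p6), and these stretches are shown because they hold the paired matches found in the windows searched. Capitals mark paired decamers with no spacer and 1 mismatch to the consensus. Bases run from position -250 to -26 before the start. For Cdkn1a the stretch is chr17:29090729-29090953 on the plus strand, upstream of the more distal of its 2 starts. For Ccng1 it is chr11:40755312-40755536 on the minus strand.
Cdkn1a: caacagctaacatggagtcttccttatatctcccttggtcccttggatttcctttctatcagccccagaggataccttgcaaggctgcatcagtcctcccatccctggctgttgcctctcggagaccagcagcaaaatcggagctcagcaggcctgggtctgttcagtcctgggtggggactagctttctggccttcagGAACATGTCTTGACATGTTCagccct
Ccng1: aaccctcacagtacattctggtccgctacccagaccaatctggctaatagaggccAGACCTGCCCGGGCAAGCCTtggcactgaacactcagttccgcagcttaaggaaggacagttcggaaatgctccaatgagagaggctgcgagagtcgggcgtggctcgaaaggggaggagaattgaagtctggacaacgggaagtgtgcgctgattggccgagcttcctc

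Promoter windows, from 250 bases before to 50 bases after a start, were found for 9 of the 10 genes, 14 windows in all, Trp53inp1 being without one. The p53 response element was searched as paired decamers with a spacer of at most 13 bases, at most 1 mismatch in total, and the central C and G of each decamer kept. The consensus decamer equals its own reverse complement, so a match reads on both strands. Of the 14 windows, 2 held a paired match, against 0.627% of 32851 windows genome-wide. In Cdkn1a 2 paired matches overlapped, the printed one and another with a spacer of 12 bases that shares a decamer with it. A single decamer without mismatch occurred in 5 of the 14 windows, those of Trp53, Mdm2, Cdkn1a, Bax and Ccng1, against 8.36% of all windows. The second Cdkn1a start and the windows of Bbc3, Sesn2, Gdf15 and Cdkn2a held none, which says only that these letters are not in these windows. The known p53 sites of Mdm2, for example, lie in its first intron.

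**Figure D1:**
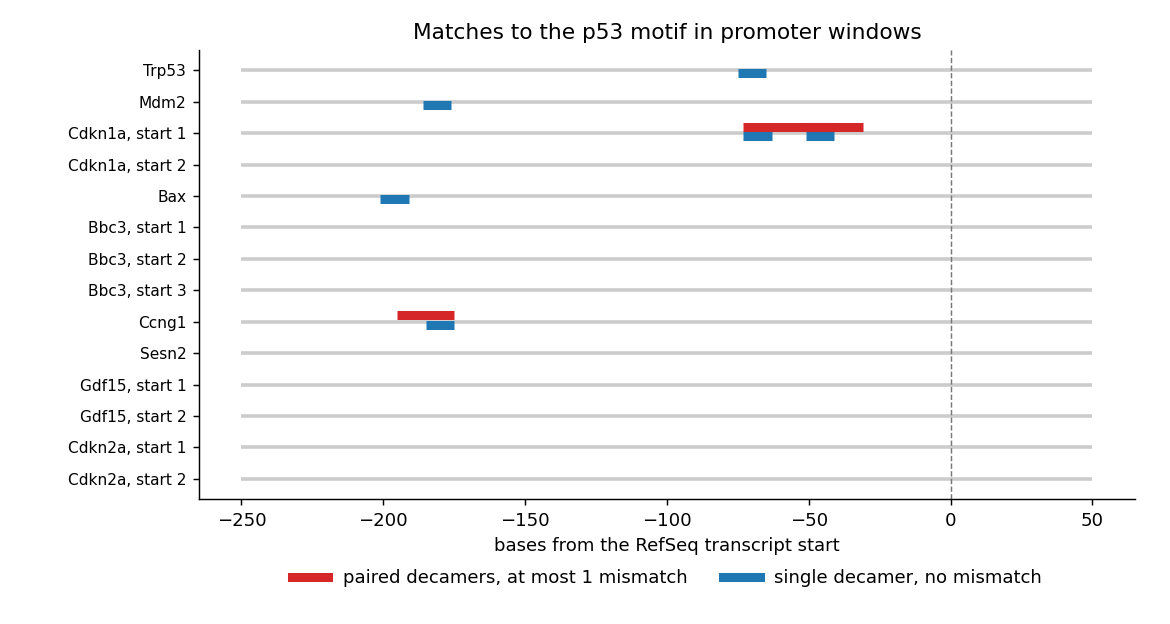
Matches to the p53 motif in the 14 promoter windows of 9 genes, by distance in bases from the RefSeq transcript start (dashed line). Red bars are paired decamers with at most 1 mismatch and blue bars single decamers without mismatch; paired matches appear in the window of the distal Cdkn1a start and in that of Ccng1.

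Across all 3 populations, transcripts of Cdkn2a and Trp53 were abundant and those of Cdkn1a, Bbc3, Trp53inp1 and Gdf15 scarce. Cdkn2a had the highest level of the 10 in each library and ranked 153rd, 125th and 232nd among the 14527 measured features across JC-WT, JC-P and JC-M3. Trp53 ranked 783rd, 1254th and 1073rd. Cdkn1a, which encodes the CDK inhibitor p21, ranked 11853rd, 11163rd and 11153rd. The TPM of Trp53 was 63.4 times that of Cdkn1a in JC-WT, 27.1 times in JC-P cells and 32.0 times in JC-M3 cells. In bulk RNA, fewer cells with a transcript and less of it per cell cannot be told apart. Some neighbours in this order could not be told apart by counting error. These were Trp53inp1 and Cdkn1a in JC-WT. In JC-P they were Trp53 and Ccng1, Mdm2 and Bax, and Bbc3 and Trp53inp1. In JC-M3 they were Cdkn1a and Bbc3, and Gdf15 and Trp53inp1.

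**Figure D2:**
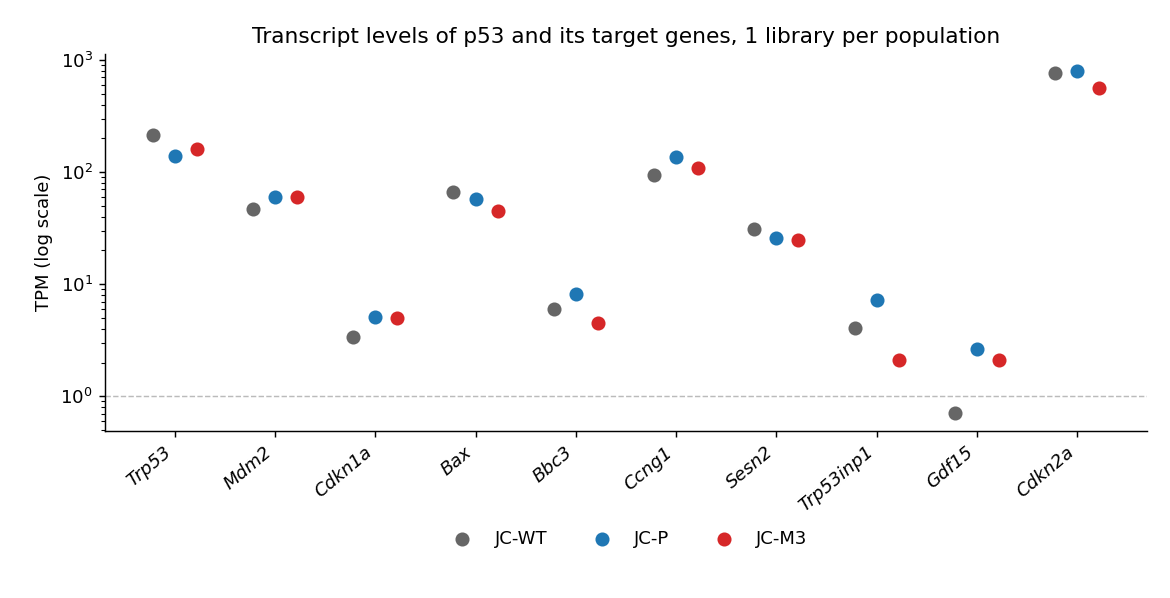
TPM of the 10 genes in the 1 library of each population, on a log scale; the dashed line is at 1 TPM. Cdkn2a sits between 563 and 797 TPM in all 3 libraries, Trp53 between 139 and 213 TPM and Cdkn1a between 3.36 and 5.14 TPM.

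Trp53 (ENSMUSG00000059552) lies on chromosome 11 from 69580359 to 69591873 (GRCm38, plus strand). Its level was 213 TPM in JC-WT (4618 reads), 139 TPM in JC-P (3702 reads) and 160.0 TPM in JC-M3 (4439 reads). JC-WT thus stood highest and JC-P lowest. The log2 ratio of TPM + 0.5 was -0.61 for JC-P against JC-WT, with a 95% counting interval of -0.67 to -0.55, and 0.20 for JC-M3 against JC-P (0.14 to 0.26). JC-M3 remained below JC-WT, at -0.41 (-0.47 to -0.35). Of the 50-base windows in Trp53 transcripts, 3.95% also occur in other genes, mainly the pseudogene Trp53-ps. The p53 relatives were barely detected, Trp63 with 2, 9 and 20 reads across JC-WT, JC-P and JC-M3 and Trp73 with 0 reads in each. Both stayed below a mean of 1 TPM. A floor of 3 reads applies to each such count of 0. With 3 libraries many genes share a pattern: of 8627 other protein-coding genes averaging 10 TPM or more, 48 lay within a distance of 0.1 of Trp53 over its ratios JC-P against JC-WT and JC-M3 against JC-P. The closest were Fam53b, Cdc42ep3 and Ppp1r10, at distances of 0.021, 0.027 and 0.031.

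Mdm2 (ENSMUSG00000020184), the p53 ubiquitin ligase and itself a p53 target, lies on chromosome 10 from 117688875 to 117710758 (minus strand). It stood at 46.4 TPM in JC-WT (1266 reads), 59.5 TPM in JC-P (1989 reads) and 60.4 TPM in JC-M3 (2107 reads). JC-WT was the low library, and the other two did not differ beyond counting error, with a log2 ratio of 0.02 (-0.07 to 0.11) for JC-M3 against JC-P. The ratio was 0.36 (0.26 to 0.46) for JC-P against JC-WT and 0.38 (0.28 to 0.48) for JC-M3 against JC-WT. The 556 measured protein-coding genes of chromosome 10 were shifted as a whole, with medians of 0.19 for JC-P against JC-WT, 0.22 for JC-M3 against JC-P and 0.41 for JC-M3 against JC-WT. Relative to those medians Mdm2 was at 0.17, -0.20 and -0.04, so its higher level in JC-M3 than in JC-WT was no larger than that of its chromosome. Its paralog Mdm4, which binds p53 and blocks its activity, stood at 20.9 TPM in JC-WT cells, 32.3 TPM in JC-P cells and 24.8 TPM in JC-M3 cells.

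Cdkn2a (ENSMUSG00000044303) lies on chromosome 4 from 89274471 to 89294653 (minus strand). Its level was 757 TPM in JC-WT (4762 reads), 797 TPM in JC-P (6137 reads) and 563 TPM in JC-M3 (4526 reads). JC-M3 was the low library. The log2 ratio was 0.07 (0.02 to 0.13) for JC-P against JC-WT, -0.50 (-0.56 to -0.45) for JC-M3 against JC-P and -0.43 (-0.49 to -0.37) for JC-M3 against JC-WT. Its neighbours on chromosome 4 were also lower in JC-M3 than in JC-P. Cdkn2b, which encodes the CDK4/6 inhibitor p15Ink4b, stood at 142 TPM in JC-WT cells, 197 TPM in JC-P cells and 92.5 TPM in JC-M3 cells, a log2 ratio of -1.09 (-1.21 to -0.98) for JC-M3 against JC-P. Mtap, encoding the methylthioadenosine phosphorylase that is often lost together with Cdkn2a, stood at 506, 410.3 and 278 TPM in the same order of populations. The median of the 722 protein-coding genes of chromosome 4 went the other way, at 0.12 for JC-M3 against JC-P. Dmrta1 had 0, 1 and 0 reads.

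Cdkn1a (ENSMUSG00000023067) lies on chromosome 17 from 29090976 to 29100727 (plus strand). It had 3.36 TPM in JC-WT (64 reads), 5.14 TPM in JC-P (120 reads) and 5.00 TPM in JC-M3 (122 reads). As for Mdm2, JC-WT was low and the other two did not differ beyond counting error. Other genes share 8.49% of its 50-base windows, and an antisense model, AC167363.2, overlaps 7.68% of its exon bases and is listed at 0 TPM. On the log2 scale the ratio was 0.55 (0.17 to 1.08) for JC-P against JC-WT and -0.03 (-0.41 to 0.34) for JC-M3 against JC-P. For JC-M3 against JC-WT it was 0.51 (0.13 to 1.04). Its relative Cdkn1b, encoding p27, had 45.5, 48.9 and 50.2 TPM across JC-WT, JC-P and JC-M3. Cdkn1b thus stood 13.6, 9.52 and 10.0 times above Cdkn1a, and its own counting intervals included no change for JC-P against JC-WT and for JC-M3 against JC-P. Cdkn1c, encoding p57, had 0 reads in all 3 libraries. Of the CDK inhibitors of the Ink4 class, Cdkn2c was at 191, 181 and 214 TPM and Cdkn2d at 125, 107 and 113 TPM across JC-WT, JC-P and JC-M3.

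Ccng1 (ENSMUSG00000020326), encoding cyclin G1, a p53 target that acts with a phosphatase on Mdm2, lies on chromosome 11 from 40748552 to 40755311 (minus strand). It stood at 94.7 TPM in JC-WT (1786 reads), 136 TPM in JC-P (3150 reads) and 109 TPM in JC-M3 (2635 reads). JC-P was the high library, and JC-M3 lay between the other two. Its log2 ratio was 0.52 (0.44 to 0.61) for JC-P against JC-WT, -0.32 (-0.39 to -0.24) for JC-M3 against JC-P and 0.21 (0.12 to 0.29) for JC-M3 against JC-WT. Ccng2, its relative, also had its highest level in JC-P, with 23.7, 33.0 and 16.2 TPM across JC-WT, JC-P and JC-M3. In plain TPM, Cdkn1a and Ccng1, whose promoter stretches are printed above, were 1.53-fold and 1.44-fold higher in JC-P than in JC-WT. Of the genes without a match in their windows, Gdf15 stood at 3.73 times its JC-WT level, Bbc3 at 1.36, Cdkn2a at 1.05 and Sesn2 at 0.82. Of those with a single decamer only, Mdm2 stood at 1.28 times, Bax at 0.86 and Trp53 at 0.65. A link between motif matches and levels was not tested.

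Bax (ENSMUSG00000003873), an effector that permeabilises the mitochondrial outer membrane, lies on chromosome 7 from 45461697 to 45466898 (minus strand). It stood at 66.7 TPM in JC-WT (564 reads), 57.5 TPM in JC-P (596 reads) and 44.6 TPM in JC-M3 (482 reads), lower at each stage. Its log2 ratios were -0.21 (-0.38 to -0.04) for JC-P against JC-WT, -0.36 (-0.54 to -0.19) for JC-M3 against JC-P and -0.58 (-0.76 to -0.40) for JC-M3 against JC-WT. Other genes share 8.51% of its 50-base windows, mainly Gm45808, an overlapping model listed at 0 TPM in every library. Bak1, the other effector, stood at 147, 159 and 157 TPM across JC-WT, JC-P and JC-M3. Other genes share 17.1% of its windows, mainly Ggnbp1. Bok, a further relative of Bax, had 5.97, 4.47 and 23.2 TPM. Its log2 ratio was -0.38 (-0.98 to 0.14) for JC-P against JC-WT and 2.26 (1.95 to 2.82) for JC-M3 against JC-P.

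Bbc3 (ENSMUSG00000002083), encoding the BH3-only protein PUMA that disables the protective BCL2 proteins, lies on chromosome 7 from 16308393 to 16318205 (plus strand). It had 5.96 TPM in JC-WT (68 reads), 8.10 TPM in JC-P (113 reads) and 4.53 TPM in JC-M3 (66 reads). JC-P was again the high library. The log2 ratio came to 0.41 (-0.01 to 0.90) for JC-P against JC-WT, -0.77 (-1.30 to -0.39) for JC-M3 against JC-P and -0.36 (-0.91 to 0.11) for JC-M3 against JC-WT, so only the second of these left out no change. Among other BH3-only genes, Bmf had the same order with 8.12, 14.7 and 4.88 TPM across JC-WT, JC-P and JC-M3. Bcl2l11, encoding BIM, had 27.8, 26.2 and 16.1 TPM. Pmaip1, encoding NOXA and a p53 target too, had 1 read in JC-WT and 0 reads in JC-P and JC-M3. Of the protective genes, Bcl2l1, encoding BCL-XL, had 123 TPM in JC-WT cells, 77.8 TPM in JC-P cells and 33.2 TPM in JC-M3 cells. Its log2 ratio for JC-M3 against JC-WT was -1.88 (-2.00 to -1.79), a larger difference than that of Bax, so that Bax stood at 0.54 times the TPM of Bcl2l1 in JC-WT, 0.74 times in JC-P cells and 1.34 times in JC-M3 cells. That pair was picked after its values were seen. Mcl1 stood at 182, 198 and 250.3 TPM.

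**Figure D3:**
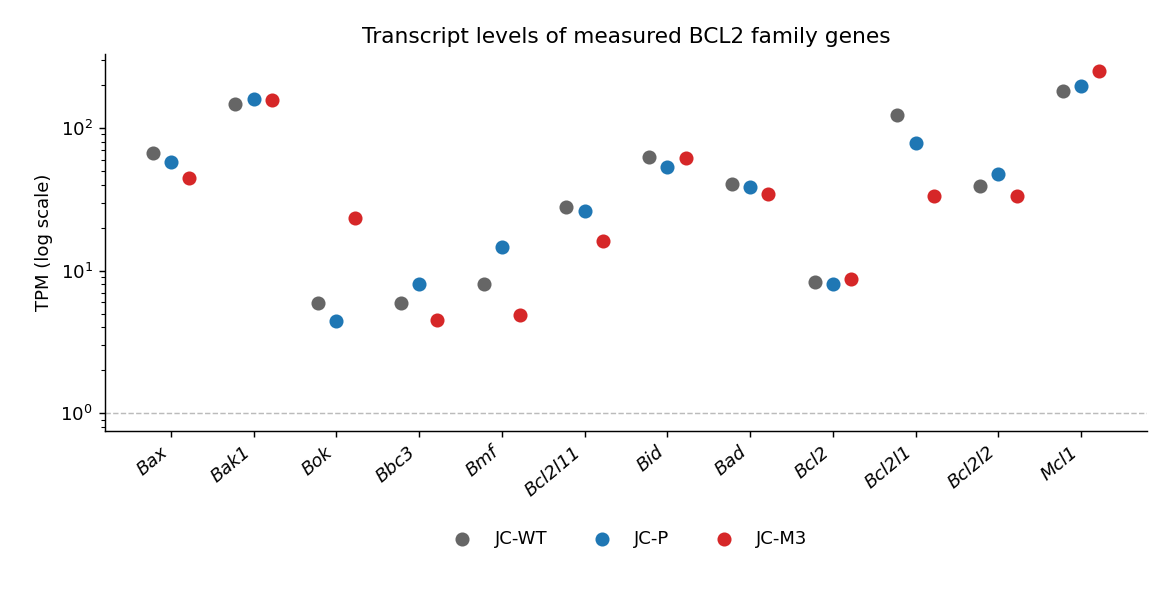
TPM of Bax, Bbc3 and 10 other measured BCL2 family genes in the 1 library of each population, on a log scale; the dashed line is at 1 TPM. Bax is lower at each stage, Bbc3 and Bmf peak in JC-P, Bok is high in JC-M3 and Bcl2l1 is lowest there.

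Sesn2 (ENSMUSG00000028893), encoding a sestrin that restrains mTORC1 and oxidative stress, lies on chromosome 4 from 132492032 to 132510501 (minus strand). It stood at 31.3 TPM in JC-WT (583 reads), 25.6 TPM in JC-P (585 reads) and 24.6 TPM in JC-M3 (587 reads). JC-WT was slightly the highest. In log2 terms its ratio was -0.28 (-0.46 to -0.12) for JC-P against JC-WT, -0.06 (-0.22 to 0.11) for JC-M3 against JC-P and -0.34 (-0.51 to -0.18) for JC-M3 against JC-WT. The other sestrins had other patterns, Sesn1 with 16.3, 13.6 and 20.2 TPM and Sesn3 with 27.9, 42.3 and 30.8 TPM across JC-WT, JC-P and JC-M3.

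Trp53inp1 (ENSMUSG00000028211), encoding a nuclear protein that promotes p53-dependent cell death and also acts in autophagy, lies on chromosome 4 from 11156431 to 11174379 (plus strand). It had 4.09 TPM in JC-WT (142 reads), 7.17 TPM in JC-P (305 reads) and 2.09 TPM in JC-M3 (93 reads). JC-P was the highest library and JC-M3 the lowest. Log2 ratios were 0.74 (0.52 to 1.11) for JC-P against JC-WT, -1.56 (-2.13 to -1.44) for JC-M3 against JC-P and -0.82 (-1.36 to -0.58) for JC-M3 against JC-WT. Its relative Trp53inp2, an autophagy gene, was likewise highest in JC-P, with 69.7, 114 and 65.1 TPM across JC-WT, JC-P and JC-M3.

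Gdf15 (ENSMUSG00000038508), encoding a secreted stress cytokine of the TGF-beta superfamily, lies on chromosome 8 from 70629393 to 70632456 (minus strand). It had 0.70 TPM in JC-WT (7 reads), 2.63 TPM in JC-P (32 reads) and 2.12 TPM in JC-M3 (27 reads). JC-WT was lowest, on very few reads. Its ratio, in log2, was 1.38 (0.69 to 3.33) for JC-P against JC-WT, -0.25 (-1.10 to 0.48) for JC-M3 against JC-P and 1.12 (0.36 to 3.04) for JC-M3 against JC-WT. The intervals are of the plain TPM ratio, and the added 0.5 TPM pulls the log2 ratio of so low a gene towards 0.

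**Figure D4:**
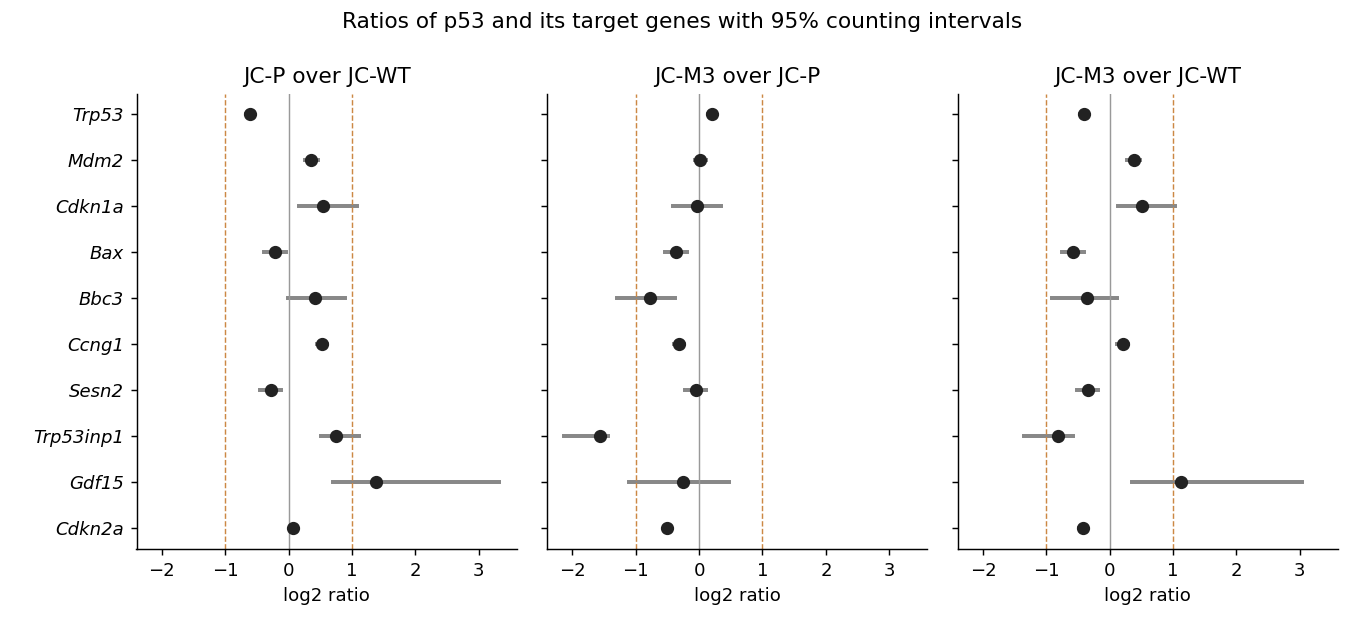
Log2 ratio of TPM + 0.5 for each of the 10 genes (points) with the 95% exact counting interval of the plain TPM ratio (grey bars) in 3 comparisons; dashed lines mark 2-fold. Gdf15 lies past 2-fold for JC-P against JC-WT and JC-M3 against JC-WT, and Trp53inp1 lies below it for JC-M3 against JC-P.

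In JC-P set against JC-WT, the comparison of cells recovered from the fat pad with the cells labelled WT, 7 of the 10 genes were higher and 3 lower. Mdm2, Cdkn1a, Ccng1, Bbc3, Trp53inp1, Gdf15 and Cdkn2a had ratios above 0, and Trp53, Bax and Sesn2 below. The median log2 ratio was 0.38, against 0.01 over all measured features. Only Gdf15 was at least 2-fold higher and 0 genes were at least 2-fold lower, 1 of 10 in all, where 4.76% of all measured features were higher, 2.33% lower and 7.10% either way, so 1 of 10 was near the background share. With a pseudocount of 2 the count was 0. The median depended on the 4 genes under a mean of 10 TPM, since among the 6 genes above it the median was -0.07. Counting intervals left out no change for 9 of 10 genes, against 55.5% of all features. The interval narrows with the number of reads, so small differences of abundant genes pass it.

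In JC-M3 set against JC-P, the comparison of cells selected in the lung with those from the fat pad, 8 of the 10 genes were lower and 2, Trp53 and Mdm2, higher. The median log2 ratio was -0.29, against -0.01 over all measured features. Trp53inp1 was at least 2-fold lower and 0 genes were at least 2-fold higher. Over all measured features 5.38% were 2-fold lower, 3.82% higher and 9.20% either way, so 1 of 10 was near the background share. The ratio of Trp53inp1 lay at percentile 2.14 of all measured features and that of Bbc3 at percentile 8.77. Intervals left out no change for 6 of 10 genes, those of Trp53, Bax, Bbc3, Ccng1, Trp53inp1 and Cdkn2a, against 59.7% of all features.

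In JC-M3 set against JC-WT, 4 of the 10 genes were higher, namely Mdm2, Cdkn1a, Ccng1 and Gdf15, and 6 lower, namely Trp53, Cdkn2a, Bax, Bbc3, Sesn2 and Trp53inp1. The median was -0.35, against 0.00 over all measured features. Gdf15 was at least 2-fold higher and 0 genes were 2-fold lower, where 6.14% of all features were higher, 5.27% lower and 11.4% either way. With a pseudocount of 2 this count also was 0. Intervals left out no change for 9 of 10 genes, against 60.3% of all features. The 3 comparisons share libraries and are not independent of one another.

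A wider list of 50 other p53 targets, chosen with earlier results of these data known, had 47 measured genes. In JC-P against JC-WT the median was -0.02, or 0.02 with upper-quartile scaling, with 0 genes at least 2-fold higher and 1 lower, 1 of 47 where the share of all measured features was 7.10%. That gene was Plk2, encoding a polo-like kinase, with 14.5 TPM in JC-P cells and 40.4 TPM in JC-WT cells. Sco2, a cytochrome c oxidase assembly gene, was next lowest with 11.3 TPM in JC-P cells and 22.0 TPM in JC-WT cells. The highest ratios were those of the phospholipid transfer protein gene Pltp, with 30 reads in JC-P and 9 in JC-WT, and of the peptide transporter gene Tap1, with 56.0 TPM in JC-P cells and 29.6 TPM in JC-WT cells. In JC-M3 against JC-P the median was 0.18, with 6 higher and 1 lower, 7 of 47 beside 9.20% of all measured features. Pltp stood at 22.8 TPM in JC-M3 cells and 1.78 TPM in JC-P cells, and Plk2 at 41.5 TPM in JC-M3 cells and 14.5 TPM in JC-P cells. The lowest were the lipase family gene Abhd4, with 58.0 TPM in JC-M3 cells and 132 TPM in JC-P cells, and Dcxr, a xylulose reductase gene, with 22.8 TPM in JC-M3 cells and 43.8 TPM in JC-P cells. In JC-M3 against JC-WT the median was 0.23, with 5 higher and 3 lower, 8 of 47 beside 11.4% of all measured features. Besides Pltp, the antiproliferative gene Btg2 ranked highest, with 6.96 TPM in JC-M3 cells and 1.83 TPM in JC-WT cells, and Abhd4 and Dcxr were lowest again. The wider list and the 10 genes thus had medians on opposite sides of 0 in JC-M3 against JC-P and in JC-M3 against JC-WT.

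The 34 measured of 35 regulators of p53 include kinases, acetylases and ubiquitin enzymes, with Mdm4 and Ppm1d also in the wider list of targets. Of the 34, 0 were at least 2-fold different in JC-P against JC-WT or in JC-M3 against JC-P. In JC-M3 against JC-WT 1 was higher. Of all measured features, 7.10%, 9.20% and 11.4% were past 2-fold in these comparisons. The medians of the regulators were -0.09, 0.10 and 0.04, beside 0.01, -0.01 and 0.00 for all measured features. The regulator past 2-fold was Sirt1, a deacetylase that acts on p53. It had 3.98 TPM in JC-WT cells, 5.91 TPM in JC-P cells and 11.5 TPM in JC-M3 cells. Chromosome 10 also carries Sirt1, whose log2 ratio for JC-M3 against JC-WT was 1.42, beside the chromosome median of 0.41. Daxx, a chromatin and apoptosis cofactor, followed with 107 TPM in JC-M3 cells and 53.7 TPM in JC-WT cells. Atr, a DNA damage kinase, had 4.22 TPM in JC-M3 cells and 2.41 TPM in JC-P cells, while Trp53bp1, a double-strand break factor, had 17.7 TPM in JC-M3 cells and 26.1 TPM in JC-P cells. Mdm4 was next lowest in JC-M3 against JC-P, at -0.38. In JC-M3 against JC-WT the kinase gene Trp53rkb was lowest, at -0.90. Next lowest was Chek2, the kinase downstream of ATM, with 13.5 TPM in JC-M3 cells and 21.1 TPM in JC-WT cells. In JC-P against JC-WT, Mdm4 had the highest ratio, 0.62, and the kinase genes Trp53rkb and Trp53rka the lowest, -0.93 and -0.69.

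Genes that p53 lowers through p21 and the DREAM repressor complex, mostly of mitosis, were read beside Cdkn1a. Of 20 such genes, which include Chek1 from the regulators, 19 had ratios below 0 in JC-P against JC-WT. The median of the 20 was -0.34, beside 0.01 for all measured features. Of the 20, 0 were past 2-fold there, beside 7.10% of all measured features. In JC-M3 against JC-P 17 were above 0, with a median of 0.34, beside -0.01 for all measured features. Cdc20, an activator of the anaphase-promoting complex, was past 2-fold, 1 of 20 beside 9.20% of all measured features, with 400.0 TPM in JC-M3 cells and 161 TPM in JC-P cells. In JC-M3 against JC-WT 9 were above 0 and 11 below, with a median of -0.03, and 0 were past 2-fold, beside 0.00 and 11.4% for all measured features. Cdkn1a was higher in JC-P (120 reads) than in JC-WT (64 reads), at 0.55 (0.17 to 1.08). It did not differ beyond counting error between JC-M3 and JC-P. A link between the level of Cdkn1a and those of the 20 genes was not tested. Sesn2 and Gdf15 are also targets of the integrated stress response through ATF4. Of 13 genes of that response, Sesn2 and Gdf15 included, 9 had ratios below 0 in each comparison, though not the same 9 each time. The median of the 13 was -0.32 in JC-P against JC-WT, -0.12 in JC-M3 against JC-P and -0.32 in JC-M3 against JC-WT. For all measured features it was 0.01, -0.01 and 0.00 in that order. Trib3, a pseudokinase gene, had the lowest ratio of the 13 in JC-M3 against JC-P and in JC-M3 against JC-WT. It stood at 98.0, 70.0 and 41.1 TPM across JC-WT, JC-P and JC-M3. In JC-M3 against JC-P 4 of the 13 were above 0, Ppp1r15a the highest at 0.68.

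**Figure D5:**
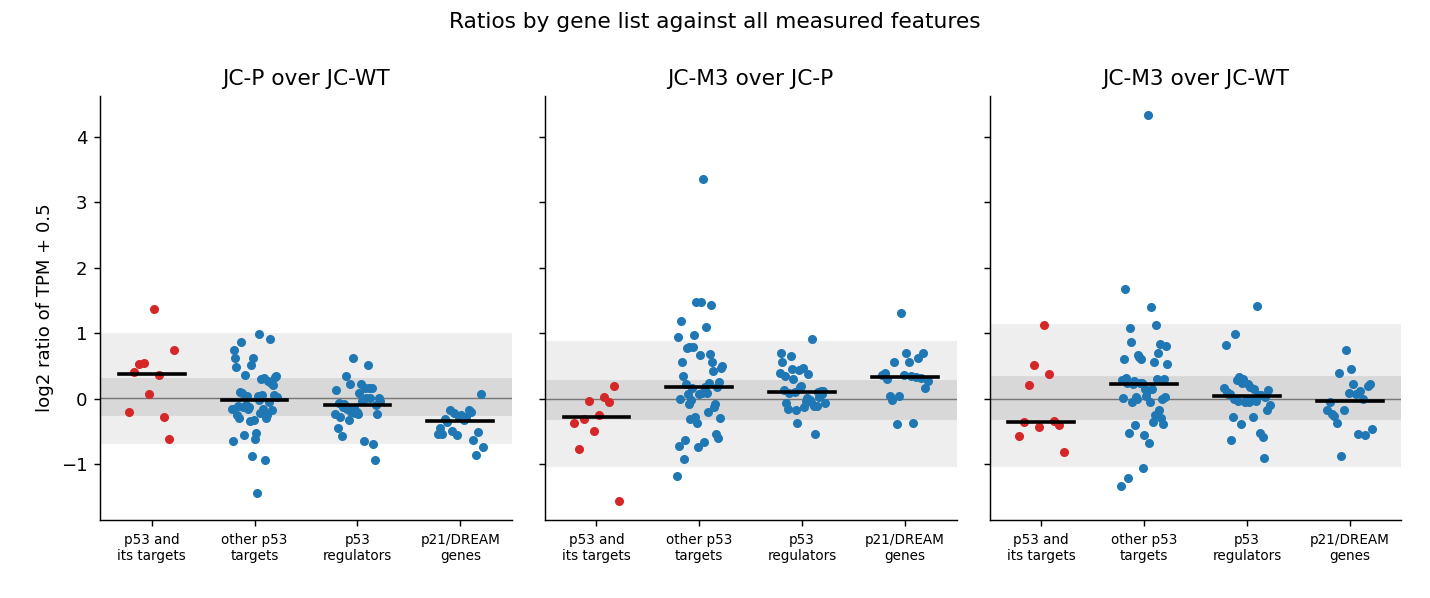
Log2 ratios of TPM + 0.5 for the 10 p53 pathway genes (red) and for measured genes of 3 further lists (blue) in 3 comparisons. Mdm4, Ppm1d and Chek1 are each in more than 1 of the 3 lists. Each point is a gene, black bars are list medians, and grey bands hold the central 50% and 90% of all measured features; the red median is 0.38 for JC-P against JC-WT and -0.29 for JC-M3 against JC-P.

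The label epithelial-like was met only in part. Krt8 stood at 1503, 1873 and 681 TPM across JC-WT, JC-P and JC-M3 and Krt18 at 48.6, 48.5 and 18.4 TPM, while the other 8 of 10 epithelial markers stayed below a mean of 1 TPM and Epcam and Cldn7 had 0 reads. The 6 leukocyte markers summed to at most 0.549 TPM per library, with Ptprc, Cd3e, Adgre1 and Itgam at 0. The 5 endothelial markers summed to 0.312, 18.0 and 0.338 TPM across JC-WT, JC-P and JC-M3, and Kdr was at 0. Cdh5 made up 17.7 TPM of the sum in JC-P. The 6 fibroblast markers summed to 84.3, 109 and 135 TPM, with Lum and Thy1 at 0. Its members differed in direction, Pdgfra with 34.1, 47.6 and 20.1 TPM, Pdgfrb with 48.7, 46.5 and 87.9 TPM, Dcn with 1.24, 14.0 and 22.5 TPM and Col1a2 with 0.25, 0.66 and 4.40 TPM in the same order of populations. The part of these markers in the levels of the 10 genes was not tested. The endothelial sum was thus highest in JC-P, through Cdh5, while Pecam1 had 10 reads in JC-P and 10 in JC-M3. Of the 10 genes, 6 had their highest level in JC-P, some within counting error. These were Cdkn1a, Bbc3, Ccng1, Trp53inp1, Gdf15 and Cdkn2a. The share of all measured features that were highest in JC-P is not given, so this count has no background beside it. The part of the endothelial markers in the levels of these 6 genes was not tested.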

How the data were processed

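Polyadenylated RNA from 3 cultured populations was sequenced, 1 library each. The deposited values are TPM, per the file headers, and each column adds up to about the same total. Tools in the submitters' processing notes are FastQC 0.11.9, STAR 2.7.9a and featureCounts (no version), and the builds named there are mm10 and GRCm38. Neither the release of the gene annotation nor how strand was set is stated in the labels; the kit was a stranded one. The members and all gene lists were chosen with earlier results of these data known.

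Each ratio is the log2 of TPM + 0.5 in one library over another, and a gene was counted as higher or lower where it had a mean of at least 1 TPM and differed at least 2-fold. With 1 library per group no test was run. TPM multiplied by merged exon length (GENCODE M21, found for 55230 features) was a whole multiple, within 0.01, of 1 read for 98.4%, 98.5% and 98.5% of expressed features across JC-WT, JC-P and JC-M3. These reads gave exact conditional (Clopper-Pearson) 95% intervals and a floor of 3 reads per library. Without molecular identifiers, intervals and floors cover counting error only, and so miss variation between cultures. All 10 members were named. Of the lists of other targets and of regulators, the 2 highest and 2 lowest ratios per comparison were named. Relatives of members and neighbours of Cdkn2a were named too. Alternatives were other scalings, pseudocounts, filters and thresholds, and chromosome medians subtracted. Scripts were tested on simulated data. Promoter sequences are from RefSeq. Computations ran in Python 3.11.15, using scipy 1.17.1, numpy 2.4.6, matplotlib 3.10.9 and pandas 2.3.3.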

Additional observations from a re-analysis of the deposited data

How the results depend on the processing

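With a pseudocount of 2, 0 of the 10 genes were at least 2-fold different in JC-P against JC-WT and in JC-M3 against JC-WT, against 1 in each as reported, since a larger pseudocount shrinks the ratio of a gene as low as Gdf15. Keeping genes above a mean of 10 TPM, which leaves 6 of the 10, the count was 0 in every comparison and the median of JC-P against JC-WT was -0.0685. A 1.5-fold threshold gave 3 genes in JC-P against JC-WT, 2 in JC-M3 against JC-P and 2 in JC-M3 against JC-WT. Shares of all measured features at 1.5-fold or above a mean of 10 TPM are not given, so these counts have no background beside them. The other alternatives run left the counts of the 10 genes at 1, and the other medians of the 10 genes kept their sign. Of 180 recomputed ratios of single members, 171 stayed inside the counting interval or between it and the reported value, and 2 changed sign, both of Mdm2 with chromosome medians subtracted. Of the 47 measured other p53 targets, 11, 20 and 17 passed a 1.5-fold threshold in JC-P against JC-WT, JC-M3 against JC-P and JC-M3 against JC-WT. These counts too lack a share of all measured features at 1.5-fold and cannot be set against the shares at 2-fold. In JC-P against JC-WT 2 of them were past 2-fold, against 1 as reported, when scaled by the upper quartile or without mitochondrially encoded features, or with a pseudocount of 0.1. Above a mean of 10 TPM, 3 and 4 of 35 were past 2-fold in JC-M3 against JC-P and JC-M3 against JC-WT, against 7 and 8. Without the share of all features above that mean, the smaller counts cannot be read as particular to these targets. No scaling moved the median of all measured features by over 0.1. Depth limits Gdf15, with 7 reads in JC-WT, Cdkn1a and Bbc3, with under 123 reads per library, and Trp53inp1, with 93 reads in JC-M3. With a pseudocount of 2 the log2 ratio of Trp53inp1 was -1.16 for JC-M3 against JC-P, still past 2-fold. For JC-M3 against JC-WT it was -0.57. No paired analysis was possible because each population has 1 library.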
